A study of Mus musculus with 12 samples.

Results

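The effect of a conditional knockout of Regnase-3 that was common to unstimulated and stimulated macrophages was estimated from RNA sequencing of mouse bone marrow-derived macrophages, with all 12 libraries of the series in use. Bone marrow cells had been cultured for 7 days with supernatant of the fibroblast line L929, which supplies the growth factor that turns marrow precursors into macrophages. Each of 4 groups held 3 libraries. They were wildtype cells (WT_M0) and cells of the genotype spelled RankCre-Regnaes3cKO in the labels (cKO_M0), both without stimulation, and both genotypes (WT_M1 and cKO_M1) given 100 ng/ml of lipopolysaccharide together with 10 ng/ml of interferon-gamma. RankCre names a Cre recombinase under the control of the RANK gene, Tnfrsf11a, so deletion is expected where that gene has been active. The sources used here do not state which exons were deleted, whether the wildtype mice carried Cre, the age of the mice or how long the cells were stimulated. The labels do not say that the libraries of a group came from separate animals, so the p-values below measure the spread between these libraries, which may be technical. Genes were described when all 3 cKO libraries lay above, or all 3 below, the 3 wildtype libraries of the same state, in the same direction in M0 and in M1. Of 15110 genes tested, 934 met this rule (6.18%), 380 of them higher in cKO (2.51%) and 554 lower (3.67%).

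Regnase-3, encoded by Zc3h12c, belongs to a family of zinc finger proteins with an RNase domain. Its best known relative, Regnase-1, cuts stem-loops in the messenger RNAs of inflammatory genes such as Il6 and so limits their lifetime in macrophages. Macrophages that meet lipopolysaccharide and interferon-gamma switch on cytokine, chemokine and antigen presentation genes and leave the cell cycle, a state called M1. RANK is the receptor for the cytokine RANKL, under which macrophage precursors become bone-resorbing osteoclasts.

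Library totals lay between 41721452 and 42197986 counts, and state separated the libraries along the first principal component, with 85.05% of the variance. The 22 macrophage markers, Csf1r, Adgre1 and Cd68 among them, summed to between 21627 and 32616 CPM (counts scaled to library size, with factors from the trimmed mean of M-values, TMM). Along the second component cKO_M0 replicate 1 lay at 2.13, nearer to the WT_M0 libraries (5.89 to 9.58) than to the other cKO_M0 libraries (-11.8 and -11.9). The targeted gene, Zc3h12c, gave a limited check of the labels, since the deleted part is not known and reads from the rest of the gene are counted. Its level was 17.2, 16.4 and 15.6 CPM in WT_M0 and 13.6, 18.5 and 14.8 in cKO_M0, which overlapped. After stimulation it was 176, 192 and 159 CPM in WT_M1 and 98.4, 104 and 127 in cKO_M1, with all cKO libraries below all wildtype libraries. The effect over both states was -0.39 on the log2 scale (standard error, SE, 0.12, edgeR quasi-likelihood adjusted p = 0.0581), and the difference of -0.61 between the effects in M1 and M0 passed (adjusted p = 0.0369). Tnfrsf11a, read in the same way, had -0.04 (95% interval -0.35 to 0.27), and the related genes Zc3h12a and Zc3h12d had 0.05 (-0.11 to 0.21) and 0.07 (-0.06 to 0.21).

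The knockout macrophages had more transcript of monocyte- and neutrophil-attracting chemokines and of Tnf in both states, and less of a part of the genes of lysosomes, osteoclasts and MHC class II antigen presentation. Single genes with large falls in both states included Dio2, Mgll and Sorbs3. In an additive model of genotype and state, tested with edgeR's quasi-likelihood test and Benjamini-Hochberg adjustment, the genotype term passed at an adjusted p under 0.05 for 1170 of 15110 genes (7.74%). Of these, 466 were higher in cKO (3.08%) and 704 lower (4.66%), and 34 and 93 differed by at least 2-fold. With libraries scaled by their totals alone, 733 were higher and 615 lower, so that the share of higher calls was 54.4% in place of 39.8%. The median over all genes moved from 0.02 to 0.05 on the log2 scale under that scaling, and the named effects below are far from it. Under it, 557 genes were higher without overlap and 447 lower. The rule of no overlap and the test met in 665 genes (4.4%), 230 higher (1.52%) and 435 lower (2.88%). The remaining 269 genes without overlap did not pass, and 505 of the genes that passed overlapped in at least 1 state. The count of passing genes fell to 673 without cKO_M0 replicate 3, 648 without WT_M0 replicate 6, 573 and 578 without cKO_M1 replicates 7 and 8, and 658 without WT_M1 replicate 12, and without cKO_M0 replicate 1 it was 1269. When each library was left out in turn, 477 genes passed all 12 times, 144 higher and 333 lower, and 382 of these had no overlap (101 higher and 281 lower). The count of genes without overlap, which grows as libraries are removed, was 1466 without cKO_M0 replicate 1, 1406 without WT_M0 replicate 5 and 1480 without cKO_M1 replicate 9. In bulk RNA, fewer cells of a type and less RNA per cell cannot be told apart.

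**Figure D1:**
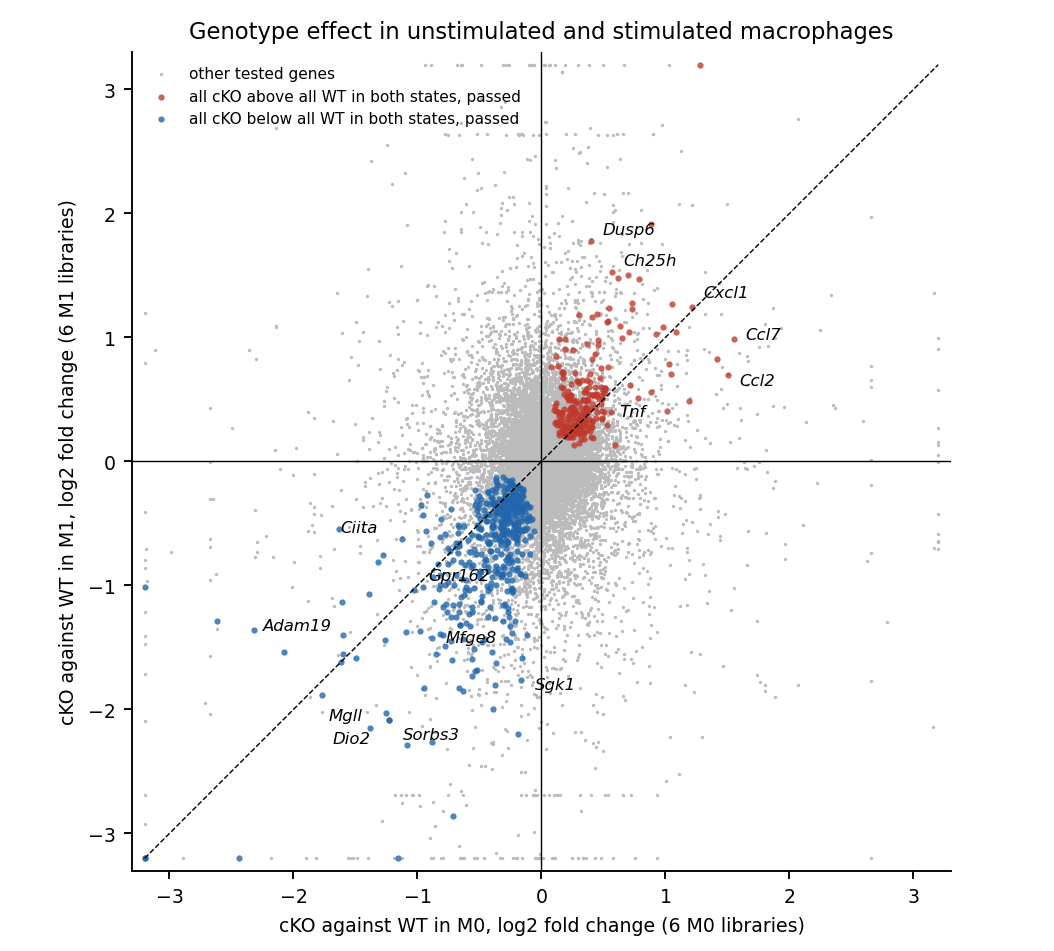
Log2 fold change of cKO against WT in the 6 M0 libraries (horizontal) and the 6 M1 libraries (vertical) for 15110 genes, values beyond 3.2 drawn at the edge, with the dashed line marking equal effects. The 230 higher and 435 lower genes that passed without overlap lie above or below 0 on both axes by construction, and more of them lie on the M1 side of the dashed line.

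Chemokines that draw monocytes and neutrophils were among the members with the greatest shared rise. Ccl7, whose product binds the receptor CCR2 on monocytes, was at 4.21, 7.13 and 3.70 CPM in WT_M0 and 10.1, 17.3 and 16.8 in cKO_M0. In stimulated cells it was at 456, 255 and 434 CPM in WT_M1 and 912, 799 and 569 in cKO_M1, so that no library overlapped in either state although stimulation raised the level many times over. The shared effect of Ccl7 was 1.25 (SE 0.21, adjusted p = 0.00432). Ccl2, the classical monocyte chemoattractant and another CCR2 ligand, was at 17.4, 25.7 and 15.1 CPM in WT_M0 against 44.3, 54.9 and 66.2 in cKO_M0, and at 591, 444 and 600.2 in WT_M1 against 1219.7, 821 and 619.8 in cKO_M1. The lowest cKO_M1 library stood only just above the highest WT_M1 library, and the effect was 1.10 (SE 0.20, adjusted p = 0.00658). Cxcl2, a neutrophil attractant acting through CXCR2, was at 2.99, 2.08 and 2.38 CPM in WT_M0 and 3.27, 5.81 and 6.19 in cKO_M0, and at 53.6, 69.0 and 56.5 in WT_M1 and 107, 98.6 and 103 in cKO_M1, an effect of 0.89 (SE 0.13). Cxcl1, of the same receptor, was scarce (0.296 ± 0.0904 CPM (SD, n = 3) in WT_M0 and 6.86 ± 1.89 in cKO_M1) and rose by 1.24 (adjusted p = 0.00252). Of 21 chemokine genes tested, 8 rose and 1, Ccl24, fell (42.9% called, against 7.74% over all genes). The list median was 0.27 against 0.02 over all genes, and 4 had no overlap in both states (19%, against 6.18%). The 4 without overlap were Ccl2, Ccl7, Cxcl1 and Cxcl2, and each passed with any 1 library left out. Cxcl3, Cxcl10, Cxcl11 and Ccl3 also rose but overlapped in at least 1 state, and the count fell from 8 to 4 without cKO_M1 replicate 7 or 8 or WT_M1 replicate 11 or 12, and to 5 without WT_M1 replicate 10. The fall of Ccl24, an eotaxin, did not pass once cKO_M0 replicate 2 or 3, WT_M0 replicate 6, cKO_M1 replicate 8 or 9 or any 1 WT_M1 library was removed.

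Among cytokines and mediators, Tnf, the gene of tumour necrosis factor, rose by nearly the same amount in both states. It was at 24.5, 26.4 and 23.4 CPM in WT_M0 and 29.8, 39.7 and 36.7 in cKO_M0, and at 273, 254 and 288 in WT_M1 and 444, 421 and 367 in cKO_M1, with no overlap. The effects were 0.51 in M0 and 0.59 in M1, with 0.56 over both (SE 0.08, adjusted p = 0.00196). Ptgs2, the inducible cyclooxygenase of prostaglandin synthesis, was nearly silent in M0 (0.632 ± 0.179 CPM in WT_M0 and 1.45 ± 0.432 in cKO_M0, mean and SD, n = 3) and among the abundant transcripts in M1 (1879 ± 150.1 and 2635 ± 91.7). It rose by 0.68 (SE 0.14). Tnfsf15, a ligand of the tumour necrosis factor superfamily, went the other way: its WT libraries were at 2.54, 1.46 and 2.22 CPM in M0 and 41.3, 78.0 and 35.1 in M1, and its cKO libraries at 1.03, 1.30 and 1.34 and 16.0, 18.5 and 20.3. It fell by 1.22 on the log2 scale (adjusted p = 0.0053). Of 20 proinflammatory genes tested, 7 rose and 2 fell (45% called, against 7.74% over all genes, median 0.34). Without overlap were 3 higher and 1 lower (20%, against 6.18%). The 7 became 4 without cKO_M1 replicate 7 or WT_M1 replicate 11 or 12, and 3 without cKO_M1 replicate 8 or WT_M1 replicate 10. Il6, a known Regnase-1 target, rose by 1.28 and Il1b by 1.24, but both overlapped in M0, where their values were -0.52 and -1.40, so neither belongs to the genes shared by both states. Il12b, a subunit of interleukin 12, fell by 1.73 over both states and overlapped in M0. Of 25 genes of the NF-kB pathway, a signalling route downstream of the lipopolysaccharide receptor, 1 rose (4% called, against 7.74% over all genes). The effect differed between states in 8 of the 25 (medians -0.12 in M0 and 0.13 in M1), against 8.16% of all genes. Falls in this list were 2 without WT_M0 replicate 5 or cKO_M1 replicate 9 and 1 without cKO_M0 replicate 2 or WT_M1 replicate 10, and DESeq2 called 2 lower and limma-voom 1. The gene that rose was Tnip3, an inhibitor of that pathway, at 88.2, 84.8 and 77.0 CPM in WT_M0 against 108, 111 and 135 in cKO_M0, and at 88.1, 87.7 and 83.9 in WT_M1 against 148, 132 and 106 in cKO_M1. Its wildtype libraries of both states lay in 1 range, and it rose by 0.53 in cKO (SE 0.08, adjusted p = 0.00266).

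**Figure D2:**
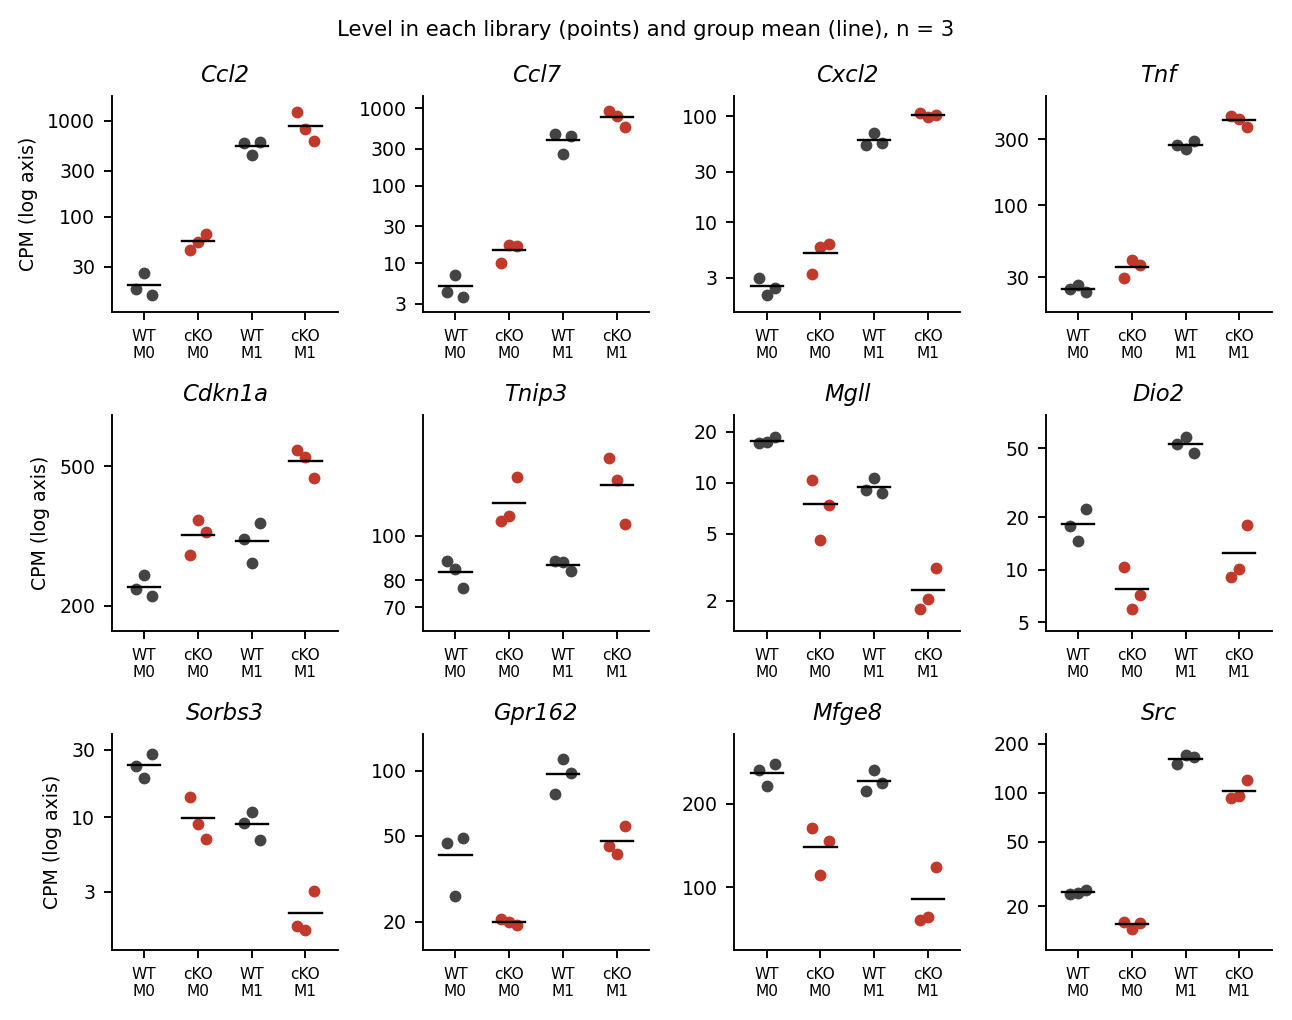
Level of 12 genes in each of the 12 libraries (points, CPM on a log axis) with the group mean (line), WT in grey and cKO in red. In both states the cKO points lie above the WT points for Ccl2, Ccl7, Cxcl2, Tnf, Cdkn1a and Tnip3 and below them for Mgll, Dio2, Sorbs3, Gpr162, Mfge8 and Src.

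Outside the inflammatory lists, the largest shared rises were in genes of varied function. Gja1, the gap junction protein connexin 43, was at 19.6 ± 2.49 CPM in cKO_M1 against 8.33 ± 1.62 in WT_M1 (SD, n = 3) and rose by 1.05 (SE 0.16). Ch25h, which makes the antiviral oxysterol 25-hydroxycholesterol, was at 7.28, 4.78 and 8.53 CPM in WT_M1 and 25.2, 22.8 and 11.7 in cKO_M1, and at about 1 CPM in M0 (0.98 ± 0.0495 in WT_M0 and 1.46 ± 0.305 in cKO_M0). Its shared effect was 1.16 (SE 0.23). Rab39, a GTPase of vesicle traffic, rose by 1.01, Lancl3 by 1.05 and Fam72a by 1.03. Glipr2, a Golgi-associated protein, was at 4.42, 4.79 and 4.04 CPM in WT_M0 and 7.17, 9.07 and 8.27 in cKO_M0, and at 35.3, 27.8 and 37.0 in WT_M1 and 54.5, 48.2 and 45.1 in cKO_M1, a rise of 0.71 (SE 0.10). The ETS transcription factor Etv1 (0.82), Phlda1 (0.88), the Ly49 family receptor Klra2 (0.66), the eotaxin receptor Ccr3 (0.65) and Tex30 (0.55) complete the 15 with the greatest shared rise, ranked by the smaller of the effects in M0 and M1 among genes with at least 5 CPM in 1 state and 1 CPM in the other. Each of the 15 passed with any 1 library left out. Cdkn1a, which encodes the cyclin-dependent kinase inhibitor p21, was at 223, 244 and 213 CPM in WT_M0 against 278, 352 and 324 in cKO_M0, and at 309, 265 and 343 in WT_M1 against 556, 529.7 and 462 in cKO_M1, with no overlap within a state, and rose by 0.62 (SE 0.09, adjusted p = 0.00196). It was the only rise among 19 genes of CDK inhibitors and growth arrest, of which 2 fell (15.8% called, against 7.74% over all genes, median -0.04). At an unadjusted p under 0.05 in edgeR, 2 of the 19 were higher and 7 lower. DESeq2 called 2 higher and 6 lower, and limma-voom 1 and 5.

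A few genes of the cell cycle and of splicing rose by smaller amounts. Of 34 genes of the G1/S transition and DNA replication, 5 rose (14.7%, median 0.20), against 3.08% of all genes. Of 28 genes of mitosis and the kinetochore, 4 rose (14.3%, median 0.19). No member of either was lower at an unadjusted p under 0.05 in edgeR, and none was called lower by DESeq2 or limma-voom. The medians were 0.31 in M0 and -0.04 in M1 for G1/S and 0.26 and 0.07 for mitosis. Without overlap in both states were 2 of the 34 (5.88%) and 1 of the 28 (3.57%), against 6.18% of all genes. Rrm2, a subunit of the ribonucleotide reductase that makes DNA precursors, was at 127, 168 and 134 CPM in WT_M0 and 182, 204 and 196 in cKO_M0, and fell with stimulation to 1.64, 1.5 and 1.41 in WT_M1 and 1.65, 2.55 and 2.43 in cKO_M1. Although 1 cKO_M1 library lay barely above the WT_M1 libraries, the shared effect of Rrm2 was 0.47 (SE 0.10, adjusted p = 0.0138). The G1/S count fell to 3 without cKO_M0 replicate 3, WT_M0 replicate 6 or cKO_M1 replicate 7 or 8, and the mitosis count to 2 without cKO_M0 replicate 2 or 3 or WT_M0 replicate 4 or 6. Of 41 splicing regulators, 5 rose (12.2%, against 3.08% over all genes), and 7 lay higher without overlap in both states (17.1%, against 2.51%). These 7 were the SR proteins Srsf1, Srsf3 and Srsf10, the splice site factor U2af1, Hnrnpa2b1, and, without passing, Hnrnpd (0.23) and Tra2a (0.17). Srsf3, which promotes exon inclusion, was at 97.2, 94.5 and 85.0 CPM in WT_M0 against 119, 107 and 119 in cKO_M0, and at 41.6, 42.3 and 38.6 in WT_M1 against 63.1, 53.6 and 48.5 in cKO_M1, a rise of 0.38 (SE 0.07, adjusted p = 0.00732). The median of the splicing list was 0.06, close to that of all genes, and its count of rises fell to 3 without WT_M0 replicate 6. Falls in that list were 2 without cKO_M0 replicate 1 or 2 or WT_M0 replicate 5, and 1 without cKO_M1 replicate 9. Of 26 glycolysis and hypoxia genes, 6 rose and 3 fell (34.6% called, against 7.74% over all genes): the enzyme Tpi1 rose by 0.35 and the growth factor Vegfa fell by 0.88. These counts were 4 and 1 without cKO_M0 replicate 3, WT_M0 replicate 6 or cKO_M1 replicate 8, and 3 and 1 without cKO_M1 replicate 7.

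**Figure D3:**
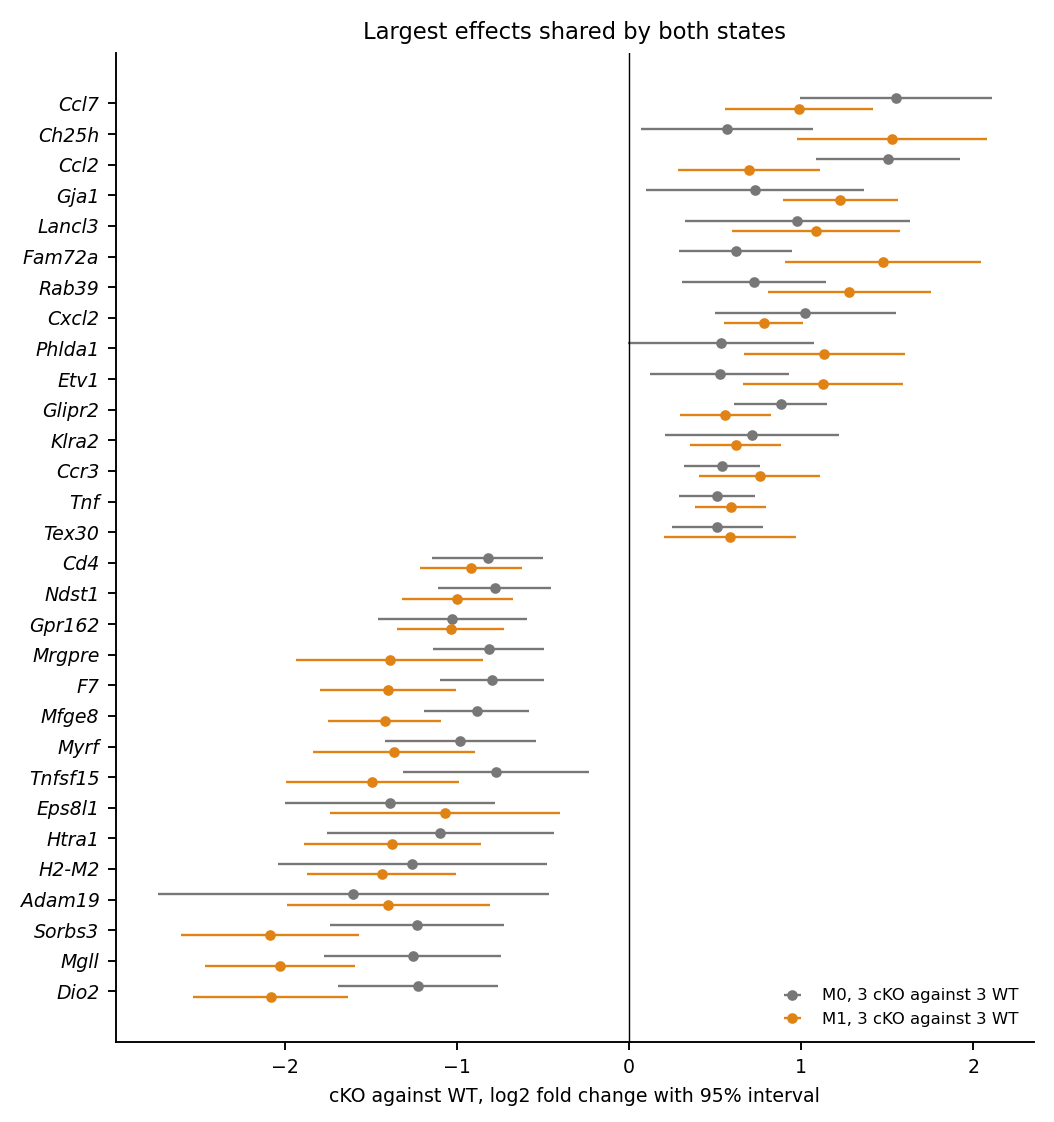
Log2 fold change of cKO against WT with its 95% interval for the 15 genes with the greatest shared rise and the 15 with the greatest shared fall, in the 6 M0 libraries (grey) and the 6 M1 libraries (orange). All points lie on 1 side of 0 for each gene by the rule that chose them, from Ccl7 at 1.55 in M0 and 0.99 in M1 to Dio2 at -1.23 and -2.08.

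Enzymes of hormone and lipid metabolism were among the 15 greatest shared falls at the same level of expression. Scarcer genes outside that ranking fell further, such as Ugt1a8, which was at 0 counts in every cKO library. Dio2, the type 2 deiodinase that turns thyroxine into the active thyroid hormone, was at 17.9, 14.6 and 22.2 CPM in WT_M0 and 10.3, 5.97 and 7.11 in cKO_M0. In stimulated cells it was at 53.0, 58.0 and 47.1 CPM in WT_M1 and 9.09, 10.1 and 18.1 in cKO_M1. Stimulation thus came with a higher level in wildtype cells, whereas the cKO libraries of M0 and M1 overlapped, and the shared effect was -1.66 (SE 0.21, adjusted p = 0.00154). Mgll, the monoacylglycerol lipase that breaks down the endocannabinoid 2-arachidonoylglycerol, was at 17.1, 17.5 and 18.7 CPM in WT_M0 against 10.4, 4.55 and 7.35 in cKO_M0, and at 9.07, 10.7 and 8.70 in WT_M1 against 1.79, 2.04 and 3.14 in cKO_M1. Its libraries were well apart in both states, and it fell by 1.60 (SE 0.20, adjusted p = 0.00154). Of 20 genes of lipid mediators and endocannabinoid enzymes, 4 fell and 2 rose (30% called, against 7.74% over all genes). The falls were Dio2, Mgll, the lysosomal phospholipase Pla2g15 (-0.45) and Daglb (-0.36), which makes the lipid that Mgll degrades. The rises, Ch25h and Pla2g4a, became 1 without cKO_M0 replicate 2 or 3, WT_M0 replicate 4 or 6, cKO_M1 replicate 7 or 8 or WT_M1 replicate 12. Dio2 is shown here by the stretch before its RefSeq start, since it has the largest effect over both states of the 15 and its promoter holds a cyclic AMP response element (CRE, TGACGTCA, the same on both strands), as is known for this gene.
Dio2, 250 bases before its start, chr12:90739039-90739288, minus strand, GRCm38.p6, motif in capitals: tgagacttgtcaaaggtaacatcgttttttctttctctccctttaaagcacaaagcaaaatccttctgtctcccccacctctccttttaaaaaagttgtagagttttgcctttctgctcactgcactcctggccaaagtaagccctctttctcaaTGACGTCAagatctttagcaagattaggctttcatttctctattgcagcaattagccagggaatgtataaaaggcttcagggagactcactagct
The element lies at position -95 relative to the start. It was present in 2.74% of the 10304 tested genes with a promoter in RefSeq, in 2.40% of the lowered and 4.0% of the raised genes that passed without overlap.

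Genes of adhesion, cell shape and the cell surface made up much of the other large falls. Sorbs3, the focal adhesion protein vinexin, was at 23.1, 19.1 and 28.0 CPM in WT_M0 against 13.9, 8.95 and 7.06 in cKO_M0, and at 9.16, 11 and 6.98 in WT_M1 against 1.73, 1.62 and 3.03 in cKO_M1, with no overlap within a state. It fell by 1.59 (SE 0.22, adjusted p = 0.00196). Eps8l1, of a family that caps and bundles actin, fell by 1.25 and Tns1, which links integrins to actin, by 0.72. With Tns3, these were 4 of 25 genes of actin and focal adhesion that fell (16%, against 4.66% over all genes). In this list 3 or 4 fell whichever library was left out. Adam19, a membrane metalloprotease, was at 18.9, 14.4 and 20 CPM in WT_M0 and 12.5, 2.75 and 2.26 in cKO_M0, so that replicate 1 lay close to the wildtype libraries, and at 1.77 ± 0.247 in WT_M1 and 0.671 ± 0.114 in cKO_M1 (SD, n = 3). It fell by 1.54 (SE 0.36). Of 23 genes of extracellular proteases, matrix and adhesion, 6 fell and 1 rose (30.4% called, against 7.74% over all genes). Itgax, the integrin CD11c (-0.79), and the protease inhibitor Timp2 (-0.49) were among the falls, and the syndecan Sdc4 rose by 0.57. Without cKO_M1 replicate 7 the falls were 3, the rise was lost without cKO_M1 replicate 7 or 8 or WT_M1 replicate 10 or 12, and 2 rose without WT_M0 replicate 5. The orphan receptor Gpr162 was at 46.2, 26.3 and 49.0 CPM in WT_M0 against 20.6, 20 and 19.3 in cKO_M0, and at 77.7, 113 and 97.9 in WT_M1 against 44.6, 40.9 and 55.6 in cKO_M1. Its effects in M0 and M1 were equal to 2 decimals (-1.03 and -1.03), and the 95% interval of their difference was -0.59 to 0.56.

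Further large falls were in secreted proteins and receptors. The serine protease Htra1 fell by 1.26, coagulation factor VII, F7, by 1.10, and Ndst1, which sulfates heparan chains, by 0.89. F7 was at 10.7 ± 0.552 CPM in WT_M0 against 6.17 ± 1.10 in cKO_M0, and at 19.3 ± 3.6 in WT_M1 against 7.28 ± 1.83 in cKO_M1 (SD, n = 3). The Mas-related receptor Mrgpre (-1.09), the nonclassical MHC gene H2-M2 (-1.36) and Myrf, a membrane-bound transcription factor known from myelin (-1.18), fell as well. Cd4, the coreceptor of helper T cells that some macrophages also express, was at 17.6, 12.9 and 18.9 CPM in WT_M0 against 8.66, 9.13 and 10.3 in cKO_M0, and at 10.6, 10.1 and 10.9 in WT_M1 against 5.17, 5.22 and 6.37 in cKO_M1, and fell by 0.86 (SE 0.10, adjusted p = 0.0011). The T cell receptor genes Cd3e and Cd3g were at 0 counts in every library and Cd3d at 1 count in 1 library, so Cd4 was lower in libraries almost without T cell transcripts. The 13 T and NK cell markers, Cd4 among them and 4 at 0 in every library, summed to 13.9 to 19.4 CPM in WT_M0 against 9.20 to 11.1 in cKO_M0, and to 10.7 to 11.9 in WT_M1 against 5.62 to 7.04 in cKO_M1. Each marker of this list other than Cd4 was at 0.938 CPM or less in every library. These sums therefore mostly repeat the fall of Cd4. Htra1, F7, Ndst1, Mrgpre, H2-M2, Myrf and Cd4, with Adam19, Dio2, Mgll, Sorbs3, Eps8l1, Gpr162, Tnfsf15 and Mfge8, are the 15 with the greatest shared fall. Each passed with any 1 library left out.

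Osteoclast genes fell, while the receptor gene Tnfrsf11a did not pass. In the list of 18 tested genes of RANK signalling and osteoclasts, 7 fell (38.9%, against 7.74% called over all genes), and the median was -0.35. Of the 7, 6 had no overlap in both states (33.3% of the 18, against 6.18% over all genes). Src, the kinase needed for the resorbing surface of osteoclasts, was at 23.9, 24.2 and 25.3 CPM in WT_M0 against 16.1, 14.6 and 15.8 in cKO_M0, and at 149.7, 170.1 and 167 in WT_M1 against 93.4, 95.3 and 121 in cKO_M1. Its libraries were apart in both states by similar ratios, with a shared effect of -0.66 (SE 0.07, adjusted p = 0.000969), and the interval of the difference between states was -0.28 to 0.29. Acp5, tartrate-resistant acid phosphatase, was at 13.3, 11.2 and 10.5 CPM in WT_M0 against 9.32, 5.28 and 6.19 in cKO_M0, and at 19.6, 17.8 and 20.7 in WT_M1 against 10.9, 9.87 and 8.94 in cKO_M1, and fell by 0.86 (SE 0.12). The others were genes that acidify or act in the resorption space: the chloride transporter Clcn7 (-0.37), the proton pump subunits Tcirg1 (-0.33) and Atp6v0d2 (-1.24) and the protease Ctsk (-0.46). Itgb3, which overlapped, fell by 1.16 and is also a platelet gene. The sum of 9 megakaryocyte and platelet markers was lower in M1 and overlapped in M0. In M0 it was 168 to 189 CPM in WT and 146 to 187 in cKO. In M1 it was 129.8 to 155 CPM in WT and 96.9 to 106 in cKO. The sum includes Pf4, which reached 122 CPM and had 4987, 4046 and 4730 counts in WT_M0 and 6313, 4890 and 4919 in cKO_M0. Of 7 tested, 3 (Ppbp, Vwf and Treml1) fell. Without overlap in both states 2 of the 7 were lower (28.6%, against 6.18% of all genes). Vwf had 3691, 3887 and 4230 counts in WT_M0 and 2687, 2546 and 2182 in cKO_M0. Treml1 had 103, 115 and 113 against 85, 61 and 65. The part of these markers in the result was not tested. The effect differed between states by the interaction test in 5 of the 18 genes of the RANK list, against 8.16% of all genes. The list medians were -0.29 in M0 and -0.40 in M1. The count of falls in this list was 7 or 8 whichever library was left out, and 1 rose without cKO_M0 replicate 1 or WT_M0 replicate 5.

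Lysosomal genes gave the list with the most members without overlap. Of 26 lysosome and autophagy genes, 11 fell (42.3%, against 7.74% called over all genes), and the median was -0.21. Without overlap in both states, 11 lay lower (42.3%, against 6.18% over all genes in either direction). At an unadjusted p under 0.05 in edgeR, 18 were lower and none higher, and DESeq2 and limma-voom called 15 and 12 lower and none higher. Psap, the precursor of the saposins that help to degrade sphingolipids, was among the most abundant transcripts, at 9270.3, 8715 and 10291 CPM in WT_M0 against 7197, 6805 and 6640.0 in cKO_M0, and at 23297, 25056 and 24847 in WT_M1 against 17103, 16966 and 19882 in cKO_M1. It fell by 0.45 (SE 0.06, adjusted p = 0.00199), by 0.46 in M0 and 0.44 in M1 (interval of the difference -0.25 to 0.28). Not all of the list was alike in the 2 states. The effect differed between states by the interaction test in 6 of the 26, against 8.16% of all genes. The list medians were -0.13 in M0 and -0.28 in M1. Gpnmb, a lysosomal membrane glycoprotein of lipid-laden macrophages, had the largest effect, -0.69 (SE 0.10), at 6987, 6960.1 and 7865 CPM in WT_M0 against 6014, 4701 and 4854 in cKO_M0, and at 9762, 10266 and 10041 in WT_M1 against 4592, 5083 and 6555 in cKO_M1. The proteases Ctsz (-0.33), Ctsd (-0.31), Ctsb (-0.29) and Ctsa (-0.23) fell, as did the proton pump subunit Atp6v1a (-0.32), the calcium channel Mcoln1 (-0.34) and the autophagy receptor Sqstm1 (-0.28). Tfeb, the transcription factor that switches on lysosomal genes, fell by 0.44 but overlapped, and Glb1 lay lower without overlap but did not pass (-0.12). Ctsl did not follow the list, with 0.38 in M0 and -0.13 in M1. The count fell to 7 and 6 without cKO_M1 replicates 7 and 8, with 8 to 13 when any other library was left out.

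**Figure D4:**
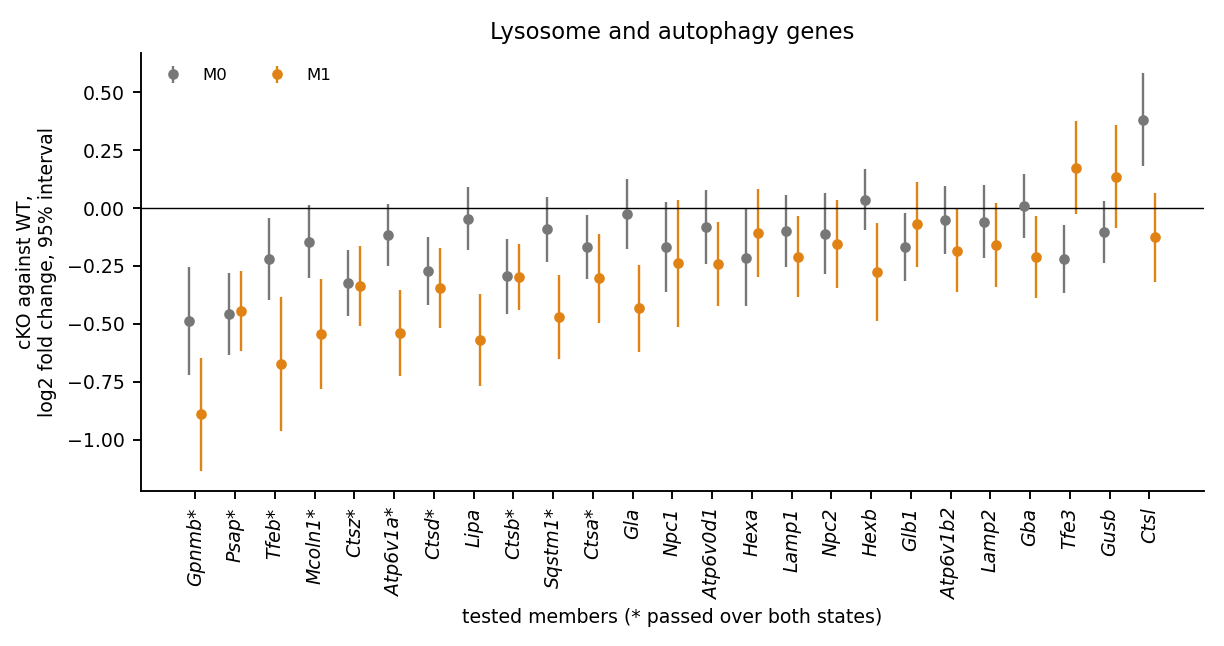
Log2 fold change of cKO against WT with its 95% interval for 25 of the 26 lysosome and autophagy genes, in the 6 M0 libraries (grey) and the 6 M1 libraries (orange), ordered by the effect over both states. The points of the 10 genes shown with an asterisk, which passed, lie below 0 in both states, with effects over both states from -0.69 for Gpnmb to -0.23 for Ctsa.

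TFEB and its relatives bind the E-box CACGTG, so the promoters of this list were read for it. In 250 bases before the RefSeq start, CACGTG (the same on both strands) was found in 8.39% of the 10304 tested genes with a promoter, in 13.2% of the 333 lowered and 3.43% of the 175 raised genes that passed without overlap. It was in 7 of the 20 lysosome genes with a promoter, Lamp1, Ctsl and Gla among them, which did not pass, and in 4 of the 9 without overlap: Ctsd, Glb1, Atp6v1a and Mcoln1. A match is a description of the letters and not a measured binding site. The promoters of the 3 of these that passed are printed, 250 bases each, GRCm38.p6, with the E-box in capitals.
Ctsd, chr7:142387828-142388077, minus strand: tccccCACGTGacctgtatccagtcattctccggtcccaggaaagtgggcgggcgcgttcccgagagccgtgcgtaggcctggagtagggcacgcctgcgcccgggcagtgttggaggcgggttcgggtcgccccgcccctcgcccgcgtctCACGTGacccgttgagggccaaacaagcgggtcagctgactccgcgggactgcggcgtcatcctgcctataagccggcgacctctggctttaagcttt
Atp6v1a, chr16:44139260-44139509, minus strand: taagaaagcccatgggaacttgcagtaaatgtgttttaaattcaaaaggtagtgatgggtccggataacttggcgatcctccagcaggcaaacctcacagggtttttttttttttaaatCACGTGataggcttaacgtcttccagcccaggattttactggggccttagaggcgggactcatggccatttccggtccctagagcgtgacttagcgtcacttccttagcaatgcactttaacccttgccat
Mcoln1, chr8:3500269-3500518, plus strand: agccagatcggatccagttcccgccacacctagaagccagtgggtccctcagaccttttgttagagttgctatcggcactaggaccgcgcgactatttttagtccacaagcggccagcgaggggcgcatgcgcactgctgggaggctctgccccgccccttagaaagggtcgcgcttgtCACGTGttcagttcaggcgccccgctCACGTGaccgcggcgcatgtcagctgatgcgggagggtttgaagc
Ctsd and Mcoln1 hold 2 copies each and Atp6v1a 1. Other motifs were searched on both strands. The AP-1 site TGANTCA was in 6.31% of lowered, 5.14% of raised and 4.53% of all genes. The GC box GGGCGG was in 63.1%, 52.6% and 57.8%, and CCAAT in 35.7%, 37.7% and 36.7%. The full palindrome of the glucocorticoid response element was in none of these windows.

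Some genes for the uptake of dying cells and of antibody complexes fell. Mfge8, the secreted bridge that marks apoptotic cells for engulfment, was at 264, 231 and 279 CPM in WT_M0 against 163, 110.2 and 147 in cKO_M0, and at 223, 265 and 238 in WT_M1 against 75.9, 77.7 and 118 in cKO_M1. The groups were far apart in both states, and it fell by 1.15 (SE 0.14, adjusted p = 0.0011). Fcgr2b, the inhibitory Fc receptor, fell by 0.63 and the receptor tyrosine kinase Axl by 0.72, the latter by 0.29 in M0 and 1.15 in M1. The receptor gene Mertk, of the macrophage marker list, did not keep 1 direction. Its unscaled counts were 3467, 2758 and 3666 in WT_M0 and lower in cKO_M0, at 2294, 2039 and 1711. After stimulation they were 12351, 11798 and 12396 in WT_M1 and higher in cKO_M1, at 13138, 14593 and 14777. Of 24 genes of endocytosis, Fc receptors and uptake, 6 fell and 2 rose (33.3% called, against 7.74% over all genes). Without overlap 3 were lower (12.5%, against 6.18%), and the list median was -0.07 over both states, -0.14 in M0 and 0.02 in M1. The effect differed between states in 3 of the 24, and 5 or 6 fell whichever library was left out. The rises became 1 without cKO_M0 replicate 3, WT_M0 replicate 5 or 6, cKO_M1 replicate 7 or 8 or WT_M1 replicate 11 or 12. The scavenger receptor Marco rose by 0.96 and Msr1 by 0.22, both with overlap.

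MHC class II genes, which present peptides to helper T cells, were the list with the greatest share of falls. Of 16 tested, 7 fell (43.8%, against 7.74% over all genes), with a median of -0.25. Of the 7, 6 had no overlap (37.5% of the 16, against 6.18% over all genes). Ciita, the master activator of this gene set, was at 45.4, 33.7 and 50.7 CPM in WT_M0 against 22.6, 19.3 and 17.9 in cKO_M0, and at 45.4, 47.7 and 39.0 in WT_M1 against 24.8, 27.6 and 33.2 in cKO_M1. No library overlapped in either state, and it fell by 0.87 (SE 0.12, adjusted p = 0.00199). H2-Aa, a chain of the I-A molecule, was at 235, 167 and 248 CPM in WT_M0 against 139.8, 96.7 and 105 in cKO_M0, and at 259, 285 and 256 in WT_M1 against 169.7, 178 and 195 in cKO_M1, and fell by 0.74 (SE 0.11). H2-Eb1 (-0.69), H2-Ab1 (-0.66), the invariant chain Cd74 (-0.59) and the peptide loading gene H2-DMb1 (-0.45) followed. Ifi30, a thiol reductase of antigen processing, was the other member that fell, with overlap. In contrast to most lowered genes, the class II list had the larger fall in M0, with list medians of -0.46 in M0 and -0.21 in M1. The difference between states passed the edgeR interaction test for 3 of the 16, against 8.16% of all genes. Among the 3 were Cd74 (adjusted p = 0.0266) and, in the opposite direction, Ifi30 (adjusted p = 0.0168). B and plasma cell markers were also lower in M1, and overlapped in M0: their 12 genes summed to 53.8 to 70.7 CPM in WT_M0 and 33.0 to 62.5 in cKO_M0, and to 3.22 to 5.23 in WT_M1 and 0.511 to 0.794 in cKO_M1. In M0, cKO replicate 1 stood apart from cKO replicates 2 and 3 for some of them. Ighm had 2493, 1573 and 1628 counts in cKO_M0 and 2914, 2316 and 2844 in WT_M0. Igkc had 318, 4 and 0 against 386, 171 and 341, and Jchain 284, 8 and 2 against 216, 99 and 191. Cd79b did not show this (117, 89 and 124 against 86, 98 and 91). Of these markers 4 were tested and none passed in edgeR over both states (2 were lower at an unadjusted p under 0.05, DESeq2 called 1 lower and limma-voom 2); their part in the class II result was not tested. The count was 6 or 7 whichever library was left out.

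**Figure D5:**
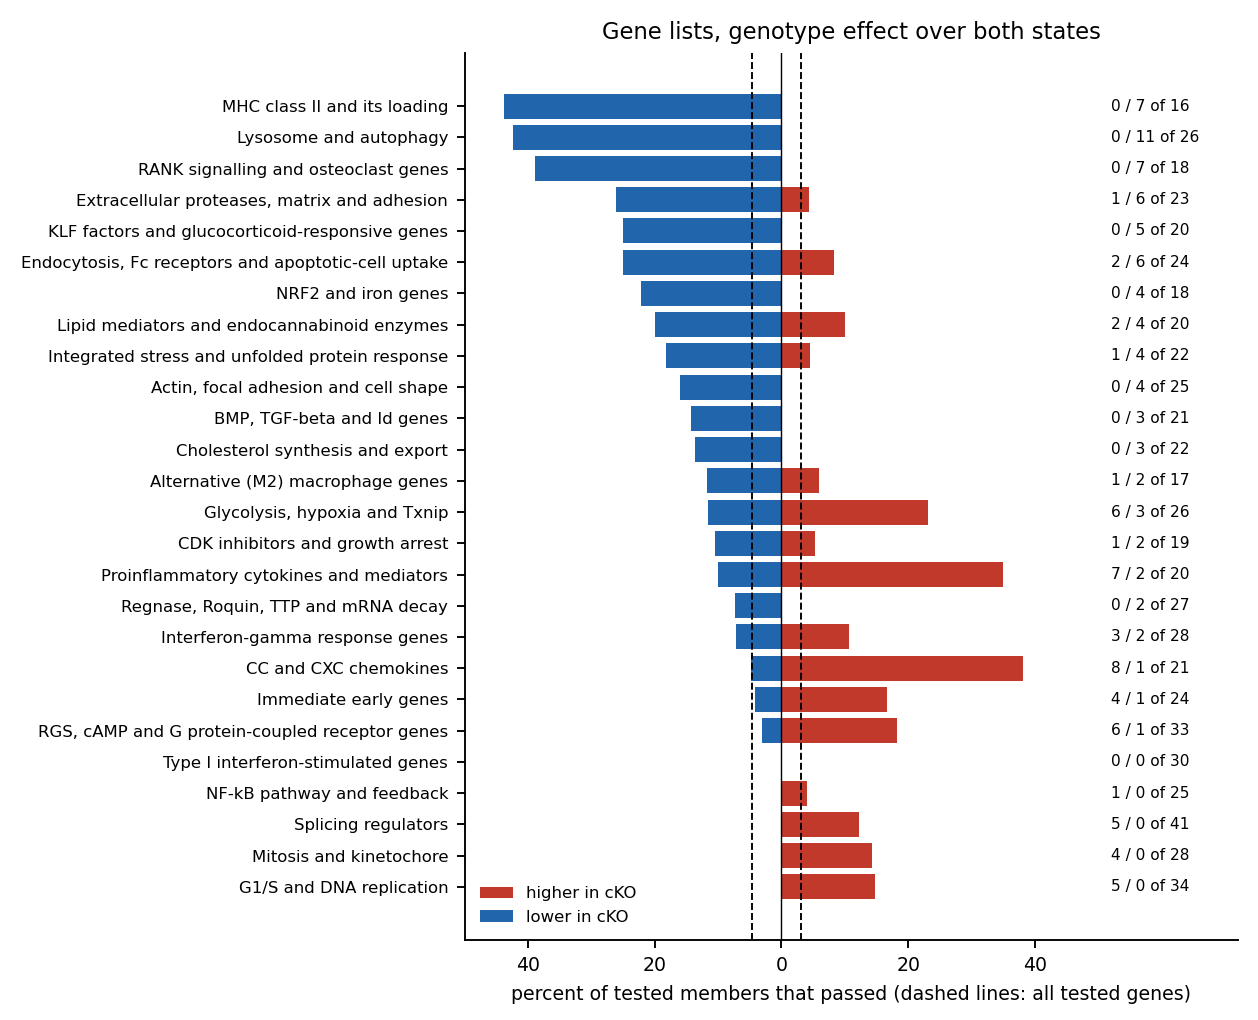
Share of the tested members of 26 gene lists that passed the genotype effect over both states, higher in cKO (red, right) and lower (blue, left), with the counts as higher / lower of tested. Dashed lines mark all tested genes, 3.08% higher and 4.66% lower; the lists with the greatest share of falls were MHC class II (7 of 16), lysosome (11 of 26) and RANK (7 of 18), and those with the greatest share of rises chemokines (8 of 21) and proinflammatory genes (7 of 20).

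The lists below had smaller shares called than the MHC class II, chemokine, proinflammatory, lysosome and RANK lists. Among 30 genes induced by type I interferon, edgeR called none over both states (median 0.08), against 7.74% of all genes. At an unadjusted p under 0.05, 2 were higher and 1 lower; DESeq2 called 1 lower and limma-voom none. In edgeR 2 rose without cKO_M0 replicate 1, 1 rose without WT_M0 replicate 5 and 1 fell without cKO_M0 replicate 2. Of 28 interferon-gamma response genes, 3 rose and 2 fell (17.9% called, against 7.74% over all genes), all with overlap. The rises became 1 without cKO_M1 replicate 7 or 8 or WT_M1 replicate 11 or 12 and 5 without cKO_M0 replicate 1, and the falls 1 without any 1 M0 library, cKO_M1 replicate 7 or WT_M1 replicate 10 or 11. Upp1, a uridine phosphorylase, had the smallest adjusted p of these, at 231, 199 and 242 CPM in WT_M1 and 523, 420.5 and 309 in cKO_M1 (0.95, SE 0.18), but it was close to 0 in M0, where 1 cKO library lay below the highest wildtype library. Of 27 genes of the Regnase and Roquin families and other mRNA decay factors, 2 passed, a share no greater than over all genes (7.41% against 7.74%). Both fell: Zfp36l2, which destabilises AU-rich mRNAs, by 0.75, and the protease Malt1, which cleaves Regnase-1, by 0.46. The call of Malt1 needed each of cKO_M0 replicate 3, WT_M0 replicates 5 and 6, cKO_M1 replicates 7 and 8 and WT_M1 replicates 10 and 12, and that of Zfp36l2 needed cKO_M1 replicate 8. Of 20 KLF and glucocorticoid-responsive genes, 5 fell (25% called, against 7.74% over all genes). In 9 of the 20 the effect differed between states by the interaction test, against 8.16% of all genes. The 5 became 2 without cKO_M1 replicate 7 or 8 and 3 without WT_M1 replicate 10 or 12, and 1 rose without cKO_M0 replicate 1, WT_M0 replicate 5 or WT_M1 replicate 10. Per1, a clock gene that glucocorticoids induce, fell without overlap by 0.46 (adjusted p = 0.018). Herpud1, an unfolded protein response gene, fell by 0.48 and the iron transporter Slc11a2 by 0.38, both without overlap.

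Of the 1170 genes that passed, 1156 had the same sign in M0 and in M1, which the additive term favours, since effects of opposite sign cancel in it; over all genes 54.1% had the same sign. In 155 of the 1170 the difference between the effects in the states passed a test of the interaction, against 1233 of 15110 over all genes (8.16%). That total was 643 without cKO_M0 replicate 3, 797 and 591 without WT_M0 replicates 4 and 6, 565 without cKO_M1 replicate 8 and 756 without WT_M1 replicate 11. Of the 665 genes that passed without overlap, the interaction passed for 71, and in 68 of these the effect was larger in M1. The effect was larger in M1 for 520 of the 665 (78.2%, against 60.7% of all genes). The raised genes had a median effect of 0.32 in M0 and 0.42 in M1, and the lowered genes -0.33 and -0.59. At least 2-fold in both states were 4 raised and 23 lowered genes. For 275 of the 665 (41.4%, against 27.9% of all genes) the 95% interval of the difference between states lay within 0.5 on the log2 scale in either direction, among them Psap, Src, Tnf, Tnip3, Clcn7 and Ctsz. For the others the data do not bound the difference that tightly, and an interaction that missed the threshold does not show equal effects. The share of 41.4% is in part set by the choice of the 665. The rule and the test favour genes of small spread and effects of 1 direction in these same libraries. That share is therefore no evidence that the effects are equal in the 2 states. Dusp6, a phosphatase of ERK kinases, shows unequal size within the rule: it rose by 0.40 in M0 (52.5, 62.3 and 56.0 CPM in WT_M0 and 69.4, 82.4 and 74.0 in cKO_M0) and by 1.78 in M1 (10.9, 4.99 and 12.9 and 32.8, 35.5 and 30.5).

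Not all genes without overlap in both states moved in 1 direction. In 495 genes (3.28%) the cKO libraries lay above the wildtype in 1 state and below in the other, beside the 934 that kept 1 direction. Chac1, a glutathione-degrading enzyme of the integrated stress response, was at 0.645, 0.859 and 0.709 CPM in WT_M0 and 1.18, 1.47 and 1.42 in cKO_M0, but at 9.89, 9.11 and 10.6 in WT_M1 and 4.15, 4.03 and 5.72 in cKO_M1. Its groups were apart in both states with opposite order, and the shared effect was -0.29 (95% interval -0.90 to 0.31). The phosphatase Dusp5, the GTPase Gem and the chaperone Hspa1a were likewise higher in cKO_M0 and lower in cKO_M1, and the zinc finger gene Zfp658 the reverse.

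Genes chosen in 1 state were then read in the libraries of the other, which shared no sample with the choice. In the 6 M0 libraries alone, 398 genes passed (2.63%), 204 higher (1.35%) and 194 lower (1.28%), and in the 6 M1 libraries 2161 (14.3%), 926 higher (6.13%) and 1235 lower (8.17%). Of the 398, 283 had the same sign in M1, or 71.1% (exact binomial 95% interval 66.4% to 75.5%, which treats genes as independent), against 54.1% of all genes. In M1, 126 of them passed (31.7% against 14.3%), 101 in the same direction and 25 in the opposite one. Genes lowered in M0 carried over more often than raised ones: 77.8% against 64.7% had the same sign, and 80 of 89 called again against 21 of 37 kept their direction. In the reverse reading, 59.0% of the 2161 genes called in M1 had the same sign in M0, 49.2% of those raised in M1 and 66.4% of those lowered, and 126 (5.83%, against 2.63% of all genes) passed in M0. The differences between lowered and raised genes were not tested. Across all 15110 genes the effects in M0 and M1 had a Pearson correlation of 0.165 and a Spearman correlation of 0.126, where genes are not independent replicates and the labels do not say whether the M0 and M1 libraries of a genotype came from the same mice. The M0 count rested on single libraries: it was 0 without cKO_M0 replicate 3 or WT_M0 replicate 6 (2135 and 1917 genes had an unadjusted p under 0.05), 3 without WT_M0 replicate 4, 868 without cKO_M0 replicate 2 and 736 without WT_M0 replicate 5. The M1 count was 867 without cKO_M1 replicate 8, 1380 without WT_M1 replicate 10 and 1144 without WT_M1 replicate 11.

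The members were also read for their response to stimulation, level, length and position. Among raised genes, 61.7% were lower after stimulation and 26.1% higher; among lowered genes the order was reversed, 25.7% and 59.3%, against 39.9% and 37.0% of all genes. Ccl2, Ccl7, Cxcl2, Tnf and Ptgs2 went against that order, as they rose both with stimulation and in the knockout. The members that passed without overlap were more abundant than all tested genes, with a median of 26.1 CPM for raised and 50.2 CPM for lowered genes against 13.8 CPM for all, which the test favours, since it calls more readily where counts are high. The lowered genes were also longer (median length 5244 bases, against 3294.5 for raised and 3838.5 for all). By position, 8 of the 100 tested genes nearest to Zc3h12c passed (8%, against 7.83% of all placed genes) and 5 of them also had no overlap, which is 5% against 4.44%. Rab39 was 1 of these 5, 9 tested genes from Zc3h12c, and was the only 1 among the 15 greatest rises. Near Tnfrsf11a, 12 of 100 passed and 3 of these, Phlpp1, Tmem177 and Ccnt2, had no overlap.

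At the edge of the rule, membership turned on small gaps. Litaf was inside, with its highest cKO_M0 library and lowest WT_M0 library close together (264, 227 and 231 against 286, 264 and 294 CPM), and so was Myo1f in M1 (754, 797 and 835 against 835, 855 and 901 CPM). Slc43a2 was just outside, as 1 cKO_M1 library reached the lowest WT_M1 library (482, 523 and 656 against 656, 740.3 and 726 CPM), and Ugt1a7c was outside through M0 (73.5, 71.8 and 67.4 against 73.5, 77.8 and 74.9 CPM). Of these 4, Litaf passed with any 1 library left out, whereas Myo1f passed in 3 of the 12 such fits.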

How the data were processed

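RNA sequencing gave deposited counts of reads per gene for 12 libraries. Per the submitters' processing notes, Trimmomatic 0.39, HISAT2 2.2.1, SAMtools 1.16.1, featureCounts 2.0.3 and the build GRCm39 were used; the strand option, the treatment of reads with several matches and the annotation release are not stated there. Symbols matched 52073 of 56980 identifiers. Of the values from 1 to 10, 60.9% were even, where single reads would give no such excess, so counts were also halved as a check added after seeing the data.

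Genes were filtered with filterByExpr (minimum count 10, total 15), scaled by TMM and fitted in edgeR 4.0.16 (R 4.3.3) with terms for state and genotype, an interaction model, and separate M0 and M1 fits. Adjusted p-values are Benjamini-Hochberg values over all 15110 genes. No overlap was read from TMM-scaled CPM. DESeq2 1.42.0, limma-voom (limma 3.58.1), other scalings, no filter and leaving out each library were alternatives. On simulated counts for the genotype effect over 15110 genes, 48 of 100 changes of 0.5 and 73 of 100 changes of 1 on the log2 scale were recovered, with 11 false calls. The simulated counts were drawn independently, with each change alike in both states. These rates therefore need not hold for the real libraries, where 1233 genes passed the interaction test.

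The named genes were the 15 higher and 15 lower with the largest smaller effect of M0 and M1 (at least 5 CPM in 1 state and 1 CPM in the other), up to 3 of each list, 2 on each side of the edge of the rule and 5 of opposite direction; other list members were named after their values were seen. The members and lists were chosen with earlier results of these data known. Promoters are from RefSeq on GRCm38.p6, used for sequence and gene order only, since the counts are on GRCm39. A few list members are counted but not reported here by name.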

Additional observations from a re-analysis of the deposited data

Results flagged for a closer look

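The effect of the knockout differed between M0 and M1, by the interaction test of edgeR at an adjusted p under 0.05, in 1233 genes. Among the genes named above, the differences (effect in M1 minus effect in M0, log2) were as follows. Among members that moved 1 way in both states, Axl differed by -0.86, the kinase gene Sgk1 by -1.60, Zfp36l2 by -0.99 and Dusp6 by 1.38. Among genes of opposite direction, Chac1 differed by -1.97, Dusp5 by -1.68, Gem by -2.22, Hspa1a by -1.58 and Zfp658 by 1.97. Zc3h12c itself differed by -0.61 and Ugt1a7c, just outside the rule, by -0.59.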

How the results depend on the processing

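The genotype effect over both states called 1170 genes. It called 2013 with DESeq2, 2262 as the mean of the M0 and M1 effects, and 573 to 1498 when each library was left out; of the 1170, 1151 were also called by DESeq2 and 1136 by limma-voom. The interaction (1233) became 1972 without the low-count filter, 1884 with DESeq2 and 565 to 1593 with a library left out. The M0 fit (398) became 803 without the filter, 1366 with DESeq2, 1 with limma-voom and 0 to 868 with a library left out, and the M1 fit (2161) 867 to 2576. The 934 genes without overlap became 1029 to 1480 with a library left out. The share of M0-called genes with the same sign in M1 (71.1%) was 100% of 1 gene with limma-voom, 65.8% with DESeq2 and 63.8% to 74.4% with a library left out, with no value where the M0 fit called none. The cause of these shifts was not tested.

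For named genes, leaving out a library kept direction and call in 1064 of the cases, lost the call in 65, gained it in 14 and reversed the sign in 9; other settings gave 627, 6, 33 and 4. No gene with a call changed sign. Among genes without a call, the effect ran from -0.25 to 0.033 for Dusp5, -0.18 to 0.027 for Tnfrsf11a and -0.089 to 0.30 for Zfp658 with a library left out; it was 0.035 for Hspa1a as the mean of the M0 and M1 effects, 0.29 for Zc3h12b and -0.28 for Zfp658 with limma-voom, and -0.085 for Zfp658 with halved counts. The lost calls with a library left out fell on Abcg1, Arg1, Egr2, Malt1, Myo1f, Ndrg1, Rrm1, Sgk1, Slc43a2, Tgfbr1, Ugt1a7c and Zfp36l2. Fits that leave a group with 2 libraries take their spread from all groups. No paired analysis was possible because the groups share no replicate numbers, which run from 1 to 12 over all libraries. Genes under the count filter were not tested, so nothing is said of genes of very low level.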

Other observations

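Among the detoxifying UDP-glucuronosyltransferases of the Ugt1a cluster, chosen after their values were seen, Ugt1a8 had 56, 55 and 64 counts in WT_M0, 12, 22 and 24 in WT_M1 and 0 in all 6 cKO libraries. Ugt1a9 had 12, 19 and 18 counts in WT_M0, 7, 7 and 8 in WT_M1 and 0 in all 6 cKO libraries. Other members of the cluster were present in cKO. Ugt1a6a had 77, 65 and 53 counts in WT_M0 and 43, 32 and 45 in cKO_M0, and 20, 15 and 23 in WT_M1 and 5, 2 and 1 in cKO_M1. Ugt1a6b had 29, 61 and 47 counts in WT_M0 and 2, 8 and 3 in cKO_M0, and 12, 10 and 23 in WT_M1 and 9, 6 and 8 in cKO_M1. Ugt1a7c, which holds most of the cluster's counts, had 3759, 3895 and 3806 in WT_M0 and 3795, 3660 and 3429 in cKO_M0, which overlapped, and 1024, 990 and 1075 in WT_M1 and 690, 623 and 696 in cKO_M1. These genes share their last exons, so how the counting split reads between them is uncertain.

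Of 14831 tested genes placed in order along the chromosomes, 659 passed without overlap (4.44%). Among them were 52 pairs of adjacent genes, and in 43 of these pairs both moved the same way. Some such pairs arise in any gene order, and their number was not worked out. Whether members group by position was therefore not tested. Lowered members also outnumber raised ones (435 and 230 of all tested genes), so pairs of 1 direction arise in any order. Mast cell, basophil and eosinophil markers, 12 genes of which 4 were at 0 in every library, summed to 7.42 to 9.07 CPM in WT_M0, 4.08 to 6.92 in cKO_M0, 4.45 to 5.19 in WT_M1 and 2.22 to 2.86 in cKO_M1, and 1 of 3 tested, Kit, fell. Neutrophil markers summed to 54.9 to 76.3, 38.5 to 52.6, 296 to 354 and 263 to 305 CPM in the same order, with some overlap in M1. Most of these sums was Csf3r, which reached 331 CPM, with Mmp8 (up to 25.4) and S100a8 (up to 15.6). The other markers of this list, Ly6g, S100a9, Elane and Mpo among them, were at 0.919 CPM or less in every library.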
